A study of Mus musculus with 10 samples.

Results

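Among the 29564 genes quantified in the left ventricle (LV), the 8 described here encode receptors of the autonomic nervous system and enzymes that act below them. Adrb1, Adrb3, Adra1a and Adra1b encode adrenergic receptors, Chrm2 and Chrna2 encode cholinergic receptors, and Adcy5 and Adcy6 encode adenylyl cyclases. They were selected by gene symbol, with earlier results of these mice known, and Chrna2 was included because it was higher in HFD+mTAC mice. For that reason the values of Chrna2 in the 2 groups are given as a description, without a test.

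The LV of 5 control (non-failing) mice and 5 mice with a high-fat diet and moderate transverse aortic constriction (HFD+mTAC) was examined by RNA sequencing to characterize a mouse model of HFpEF, heart failure in which the ejection fraction is preserved. In mTAC, a ligature narrows the aorta and loads the LV with pressure. All 10 mice were wild-type (WT) animals of strain C57BL6, males of the C57BL/6J substrain according to the methods, and no transgene or deletion was used. Control mice had no operation and ate standard chow. The series lists vehicle as the treatment of both groups, and the treatment protocol describes it for HFD+mTAC mice as 10 mL/kg once daily over 6 to 9 weeks. The labels give no age. Diet and operation were applied together, so their effects cannot be told apart in these samples. Each sample is 1 mouse, with control mice numbered TT-583 to TT-587 and HFD+mTAC mice numbered TT-588 to TT-592, and values are listed below in that order.

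Noradrenaline released by sympathetic nerves acts on the heart through beta-adrenergic receptors, which couple through the stimulatory G protein to adenylyl cyclase and raise cyclic AMP (cAMP). cAMP activates protein kinase A (PKA), which phosphorylates calcium channels and myofilament proteins and so increases the rate and force of contraction. Alpha-1 receptors act through Gq and phospholipase C instead. Acetylcholine from the vagus nerve acts on the muscarinic M2 receptor, which inhibits adenylyl cyclase and opens a potassium channel, whereas nicotinic receptors are ion channels formed of subunits and are best known from neurons and skeletal muscle.

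Because related receptors and cyclases resemble each other in sequence, the transcripts of the 8 genes were compared for stretches at which sequencing reads could be assigned to the wrong gene. No 31-base word was shared between transcripts of any 2 of the 8 genes in the GENCODE annotation of GRCm38 (release M21). With genes outside the 8, Adra1a shared 104 of 8777 words, Adrb1 68 of 3352, Adrb3 29 of 3370, Chrna2 28 of 3756, Adcy6 17 of 6821 and Adra1b 12 of 3365, whereas Chrm2 and Adcy5 shared 0. The longest run of identical coding bases shared by the 2 cyclases was 29 bases, shorter than the 31-base words compared. It is shown as their longest identical stretch, and how well reads over it were separated was not tested. It lies in coding exon sequence at chr16:35298575-35298603 (plus strand) for Adcy5 and at chr15:98594338-98594366 (minus strand) for Adcy6, with every base in capitals because all are shared.
Adcy5 and Adcy6: CGGCTGCTCAATGAGATCATCGCAGACTT

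The 2 beta-adrenergic receptors shared a run of 30 coding bases, given here in capitals with 12 bases of coding sequence on either side in lower case. The windows lie at chr19:56723332-56723385 (plus strand) for Adrb1 and at chr8:27227478-27227531 (minus strand) for Adrb3.
Adrb1: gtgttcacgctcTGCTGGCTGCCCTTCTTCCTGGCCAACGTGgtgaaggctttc
Adrb3: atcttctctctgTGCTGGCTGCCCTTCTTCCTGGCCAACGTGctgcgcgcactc

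Libraries held 34.2 to 53.7 M estimated counts, of which mitochondrially encoded genes took 43.8 to 52.7%. Counts were scaled to CPM (counts scaled to a fixed library size) with edgeR's TMM factors. A gene was tested when it was protein-coding, not mitochondrially encoded and had at least 1 count in 9 of the 10 mice, which held for 13300 genes and for 7 of the 8 described here. Across all tested genes, edgeR's quasi-likelihood test called 8 (0.0602%) at an adjusted p under 0.05, and 1099 (8.26%) had an unadjusted p under 0.05. Besides Chrna2, for which no test is reported, 0 of the other 6 genes that passed the filter were called, and 0 of them had an unadjusted p under 0.05. With DESeq2, which called 120 genes (0.921%), 0 of these 6 were called.

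Adrb1 encodes the beta-1 adrenergic receptor, the main beta receptor of cardiomyocytes. Its levels were 13.1, 13.6, 18.8, 22.5 and 16.7 CPM in control mice and 18.5, 17.4, 11.2, 10.8 and 18.4 CPM in HFD+mTAC mice. The groups overlapped, with 3 HFD+mTAC mice inside the control range and mice TT-590 and TT-591 below it. Mean levels were 16.9 ± 3.89 and 15.3 ± 3.91 CPM (SD, n = 5 each). The log2 fold change of HFD+mTAC over control was -0.14 with a 95% interval of -0.58 to 0.29 (edgeR, adjusted p = 0.913). It ran from -0.226 (without TT-588) to -0.0227 (without TT-586) when single mice were left out and was -0.415 without the 3 mice whose TPM values had the lowest sum (control mice TT-583 and TT-584 and HFD+mTAC mouse TT-592). No difference was called for this gene. In bulk tissue, the number of cells of a type and the RNA per cell both enter such values and cannot be told apart.

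Adrb3 encodes the beta-3 adrenergic receptor, known mainly from adipocytes. It was close to undetected, with 1, 0, 0, 6 and 0 estimated counts in control mice, against 1, 1, 5, 0 and 0 in those with HFD+mTAC. A gene so sparse did not pass the filter, and no difference was detectable at this depth. Adipocyte markers (Adipoq, Plin1, Cfd, Lep, Cidec and Retn) summed to 0.0619 to 0.700 TPM (transcript abundance corrected for length and scaled within a mouse) in control mice and to 0.00405 to 0.322 TPM in HFD+mTAC mice, and each of the 6 was at 0 in some mice. Ucp1, the defining marker of brown adipocytes, was listed at 0 in all 10 mice.

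Adra1a and Adra1b encode the alpha-1A and alpha-1B receptors, the alpha-1 subtypes of cardiomyocytes. Adra1a was measured at 8.31, 7.88, 14.1, 10.4 and 8.26 CPM in control mice and at 16.01, 18.15, 8.304, 9.83 and 16.1 CPM in HFD+mTAC mice. Mice TT-588, TT-589 and TT-592 lay above every control mouse, whereas mice TT-590 and TT-591 lay within the control range, so the groups overlapped. Its log2 fold change was 0.48 (95% interval -0.03 to 1.00, edgeR adjusted p = 0.627), the largest of the 6 genes that were tested here and not called, and it was 0.26 without the 3 mice of lowest TPM sum. For Adra1b, control mice gave 27.99, 33.5, 42.8, 29.7 and 22.02 CPM and HFD+mTAC mice 43.6, 45.1, 32.5, 21.6 and 36.6 CPM. Mice TT-588 and TT-589 exceeded all controls and mouse TT-591 lay just below them. The difference was 0.20 on the log2 scale (95% interval -0.24 to 0.65, edgeR adjusted p = 0.862). It ran from 0.0977 (without TT-589) to 0.343 (without TT-585) when single mice were left out and was 0.0827 with the first principal component as a covariate.

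Chrm2, which encodes the M2 receptor, the main muscarinic receptor of the heart, was measured at 108, 91.3, 150, 169 and 119 CPM in control mice and at 154, 139, 98.7, 70.8 and 124 CPM in HFD+mTAC mice. In CPM, only mouse TT-591 lay outside the control range, below it, whereas in deposited TPM 3 HFD+mTAC mice lay below all controls. The log2 fold change was -0.12 with a 95% interval of -0.57 to 0.33 (edgeR, adjusted p = 0.926). Its sign changed in 2 of 20 alternative fits, with 0.00380 without control mouse TT-586 and 0.02 without HFD+mTAC mouse TT-591. The value was -0.238 without HFD+mTAC mouse TT-588, -0.292 with transcript lengths as an offset and -0.333 without the 3 mice of lowest TPM sum.

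Chrna2 encodes the alpha-2 subunit of nicotinic acetylcholine receptors and was one of the least abundant genes of the group. Control mice had 68, 55, 44, 32 and 25 estimated counts, and HFD+mTAC mice had 104, 120, 88, 85 and 108. After scaling, these were 3.26, 2.89, 2.16, 2.26 and 1.97 CPM in control mice and 6.66, 7.26, 6.77, 5.803 and 6.63 CPM in HFD+mTAC mice. The lowest HFD+mTAC value exceeded the highest control value, as was the case in either direction for 261 (1.96%) of all tested genes, and since this pattern led to the choice of the gene, nothing is read from it. The fitted fold change was 2.62, or 1.39 on the log2 scale with an SE of 0.18. In TPM, which take transcript length into account, the means were 0.0666 ± 0.0253 and 0.154 ± 0.0333 (SD, n = 5 each), a ratio of 2.32.

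Cell type markers were examined beside Chrna2. Of 6 markers of autonomic neurons, Th, Chat and Slc18a3 were listed at 0 in all 10 mice, and the sum of the list was 0.102 to 0.228 TPM in control mice and 0.106 to 0.283 TPM in HFD+mTAC mice. Schwann cell markers, of which 1 of 4 was at 0 in some mice, summed to 0.556 to 0.989 TPM and to 0.337 to 0.640 TPM, respectively. Skeletal muscle markers summed to 0.0118 to 16.9 TPM in control mice and 0.0129 to 9.95 TPM in HFD+mTAC mice, with each of 5 markers at 0 in some mice. The high values came from Mylpf, with at most 19.1 estimated counts, whereas Myh4, Myh1, Myh2 and Actn3 reached at most 0.0178 TPM. The part of these cells in the values of Chrna2 was not tested. Markers of the labelled tissue were abundant, with cardiomyocyte genes summing to 18507 to 23511 TPM (median 20767.9) in control mice and 16239 to 19776 TPM (median 17478.5) in HFD+mTAC mice. These ranges overlapped, the median was lower in HFD+mTAC mice, and its part in the values of the 8 genes was not tested. The sum of 5 atrial markers was 82.3 to 143 TPM (median 124) in control mice and 47.5 to 130 TPM (median 53.2) in HFD+mTAC mice, and nearly all of it was Nppa, a gene that ventricular cardiomyocytes can also express. Myl7, Sln, Myl4 and Dkk3 reached at most 0.830, 0.0505, 2.38 and 0.167 TPM in any mouse, and the part of Nppa-expressing cells in the values of the 8 genes was not tested. Fibroblast markers summed to 88.1 to 155 TPM in control mice and 73.8 to 119.7 TPM in HFD+mTAC mice, endothelial markers to 43.8 to 75.6 TPM and 38.8 to 64.4 TPM, and smooth muscle and pericyte markers to 15.9 to 28.5 TPM and 11.5 to 22.9 TPM. Macrophage markers (14.2 to 28.1 TPM and 16.6 to 21.1 TPM) and brown or beige adipocyte markers (2.08 to 5.42 TPM and 2.55 to 4.31 TPM) overlapped between the groups as well. Nearly all of the latter sum was Cidea (2.05 to 5.31 TPM and 2.53 to 4.26 TPM), with Ucp1 at 0 and Elovl3 and Dio2 at no more than 0.00944 and 0.112 TPM.

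Adcy5 and Adcy6 encode the adenylyl cyclases that predominate in the heart. Levels of Adcy5 were 93.4, 96.7, 108, 106 and 72.7 CPM in control mice and 107, 103, 87.4, 76.6 and 107 CPM in HFD+mTAC mice. All 5 HFD+mTAC mice lay within the control range. The log2 fold change was 0.02 (95% interval -0.25 to 0.28, edgeR adjusted p = 0.988), and its sign changed with the scaling, to -0.12 with transcript lengths as an offset. For Adcy6, levels were 125, 159, 239, 196 and 122 CPM in control mice and 226, 215, 133, 141 and 266 CPM in HFD+mTAC mice. Mouse TT-592 exceeded the control range and the other 4 lay inside it. The difference was 0.22 on the log2 scale (95% interval -0.26 to 0.71, edgeR adjusted p = 0.862), and it was 0.0868 without TT-592, 0.383 without TT-585 and -0.06 without the 3 mice of lowest TPM sum.

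**Figure D1:**
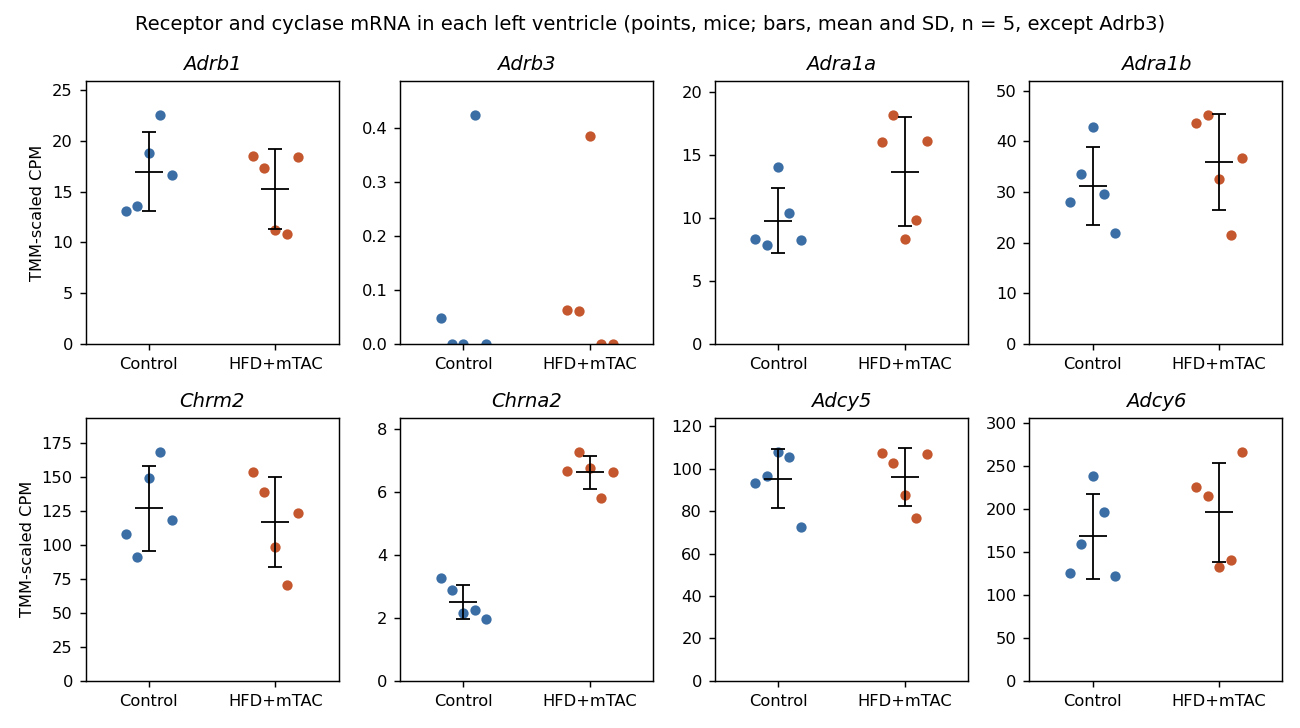
TMM-scaled CPM (vertical axes, starting at 0) of the 8 genes in 5 control and 5 HFD+mTAC mice, with 1 point per mouse in the order of mouse numbers and bars for the mean and SD, omitted for Adrb3. Chrna2, which was chosen because it was higher in HFD+mTAC mice, has 1.97 to 3.26 CPM in control mice and 5.803 to 7.26 CPM in HFD+mTAC mice. Nothing is read from the lack of overlap in its panel, which was found for 1.96% of all tested genes.

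The 8 genes were ordered by their level over the 10 mice on 2 scales that correct for length, and neighbours in each order were compared within mice with a two-sided exact sign-flip permutation test, adjusted over the 7 comparisons of a scale. In deposited TPM, Chrm2 (2.03) and Adcy6 (2.03) came first, followed by Adra1b (1.30), Adcy5 (0.997), Adrb1 (0.638), Adra1a (0.164), Chrna2 (0.111) and Adrb3 (0.00545). Chrm2 and Adcy6 did not differ beyond their spread, with Chrm2 higher in 4 of 10 mice and a mean difference of 0.00527 ± 0.605 TPM (SD, exact permutation test, adjusted p = 0.982). The order of their means differed by group, with 2.30 TPM for Chrm2 and 1.960 TPM for Adcy6 in control mice (Chrm2 higher in 3 of 5) against 1.77 and 2.10 TPM in HFD+mTAC mice (1 of 5), a difference between groups that was not tested. Neighbours further down the order that did not include Chrna2 differed, with adjusted p of 0.00342 to 0.0365 in exact permutation tests. Of these, 0.00342 is the smallest that the adjustment gave here. No p is read for the pairs with Chrna2, because its values led to its choice. The order was itself set by the means of the same values. Adra1b exceeded Adcy5 in 7 of 10 mice and Adra1a exceeded Chrna2 in 9 of 10, with means of 0.147 and 0.0666 TPM in control mice and 0.181 and 0.154 TPM in HFD+mTAC mice. Compared with all tested genes, the mean TPM of Chrm2 and Adcy6 lay above 65.1 and 65.0% of genes and that of Chrna2 above 15.4%.

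The order changed when length was taken from the annotation instead. As CPM per kilobase of the longest annotated transcript, Adcy6 (30.2) stood above Chrm2 (21.5) in 9 of 10 mice (exact permutation test, adjusted p = 0.00391), and Adcy5 (13.7) above Adra1b (10.1) in 10 of 10 (adjusted p = 0.00228, exact permutation test). Adrb1 (5.45), Adra1a (2.74), Chrna2 (1.28) and Adrb3 (0.0351) kept their places. The levels of the cyclases relative to the receptors thus depended on the length that was used.

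**Figure D2:**
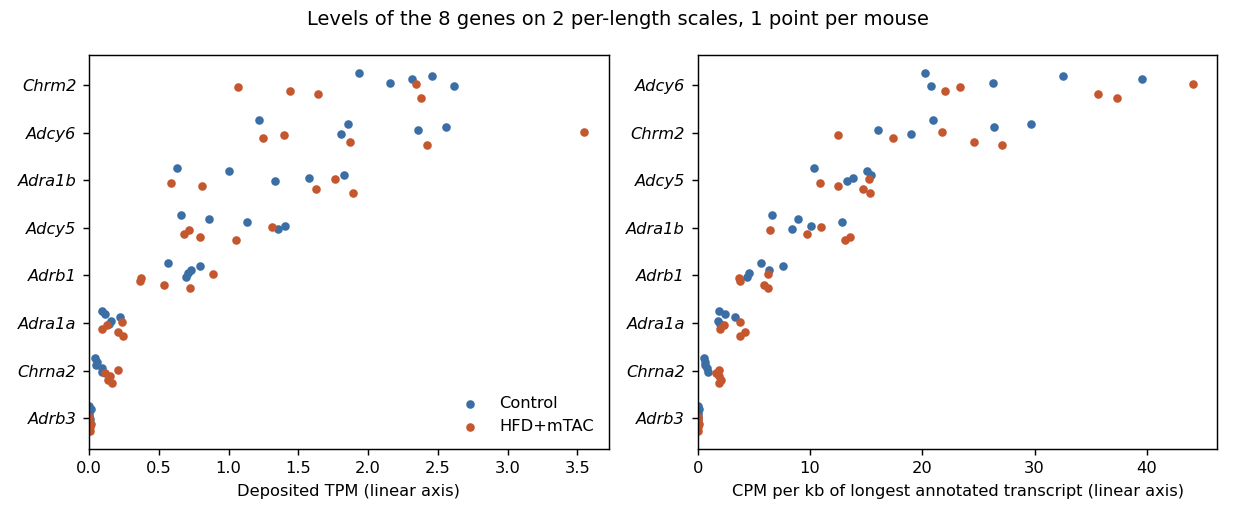
Levels of the 8 genes in deposited TPM (left) and in CPM per kilobase of the longest annotated transcript (right), on linear horizontal axes with 1 point per mouse and genes ordered by their mean. Chrm2 leads with 2.03 TPM beside Adcy6 with 2.03 TPM, whereas Adcy6 leads on the right with 30.2 against 21.5 for Chrm2.

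The ratio of Adcy5 to Adcy6 in TPM was 0.752, 0.594, 0.441, 0.463 and 0.542 in control mice, against 0.433, 0.426, 0.548, 0.514 and 0.370 in those with HFD+mTAC. Adcy5 was thus below Adcy6 in every mouse, and the groups overlapped. The ratio of Adra1a to Adra1b had medians of 0.116 (0.0995 to 0.152) in control mice and 0.128 (0.116 to 0.217) in HFD+mTAC mice. Chrm2 exceeded Adrb1 by a median ratio of 3.15 (3.04 to 3.78) in control mice and 3.05 (2.64 to 3.94) in HFD+mTAC mice. No ratio to Adrb3 is given because it was listed at 0 TPM in 5 of 10 mice.

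The authors' effective lengths, which are averages over the transcripts of a gene weighted by abundance and corrected for sequence, GC and positional bias, are a separate readout of the same libraries. For 7 of the 8 genes, the mean effective length exceeded the longest annotated transcript, by a ratio of 2.53 for Adra1a, 2.26 for Adcy6, 2.12 for Adcy5, 1.74 for Chrna2, 1.597 for Chrm2, 1.30 for Adrb1 and 1.23 for Adra1b. Adrb3 had a ratio of 0.749, which is not comparable with the others. Its length was listed at the same 2095 bases in every mouse with 0 counts. In the remaining mice it ran from 1064 to 3759 bases on at most 6 counts. Over all tested genes, the ratio was above 1 for 47.7% and above 2 for 12.2%, with a median of 0.962. TPM of the 7 genes are lowered by these lengths relative to CPM per annotated kilobase.

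Effective lengths were compared between the groups with limma after each mouse was centred on its median. For Chrm2, they were 7189, 7567, 9527, 9671 and 8284 bases in control mice and 9954, 11032, 9164, 9177 and 9059 bases in HFD+mTAC mice. Control mice TT-583 and TT-584 had the shortest and HFD+mTAC mice TT-588 and TT-589 the longest, and the groups overlapped. The centred log2 difference for Chrm2 was 0.22 with an SE of 0.09 (limma, adjusted p = 0.597). The other 6 genes had differences of 0.08 to 0.17, and 0 of the 7 were called (0% of 13300 genes, of which 915 or 6.88% had an unadjusted p under 0.05). Mice TT-583, TT-584 and TT-592 also had the lowest shares of mitochondrial counts, 43.8, 44.0 and 46.4%, and their part in the lengths was not tested.

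**Figure D3:**
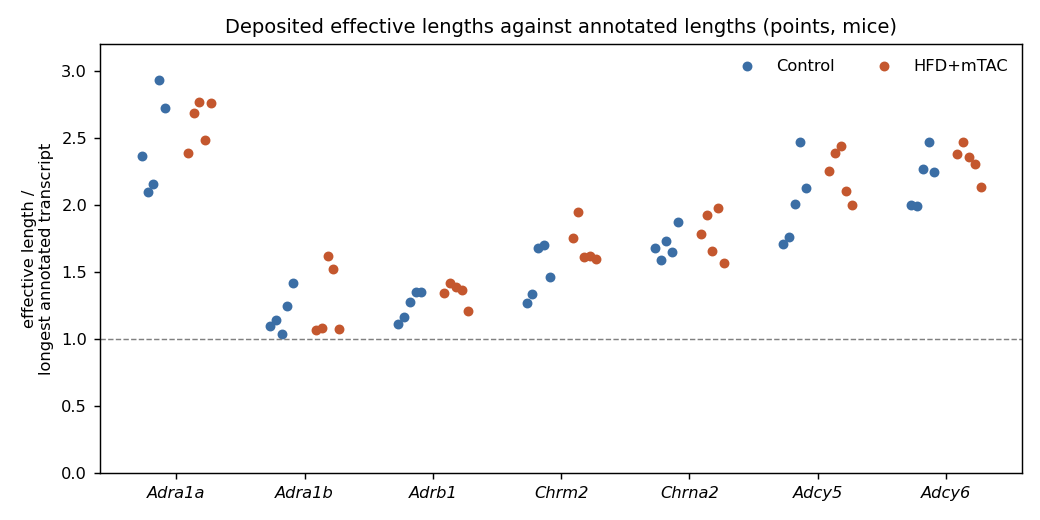
Deposited effective length divided by the longest annotated transcript (vertical axis, ratio starting at 0) for the 7 tested genes, with 1 point per mouse and a dashed line at 1. Every point lies above the line, and the mean ratio runs from 1.23 for Adra1b to 2.53 for Adra1a.

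Covariation of the genes between mice of the same group was examined as a further readout. After removal of group means from log2(CPM + 0.5), 20 of the 28 pairs among the 8 genes had a positive Pearson's r over the 10 mice, and 4 had an adjusted p under 0.05 over the 28 pairs in an exact permutation test within groups. These were Adrb1 with Chrm2, Adcy5 with Adcy6, Adra1b with Adcy5 and Adra1a with Adcy6. The share of pairs of other tested genes that would pass was not computed, so the count is not read as particular to these genes. Adrb1 and Chrm2, receptors for noradrenaline and acetylcholine, gave r = 0.92 and Spearman's rho = 0.91 (exact permutation test, adjusted p = 0.0194 and 0.0126), and r = 0.92 without the 2 mice farthest from the median of Adrb1. Adcy5 and Adcy6 gave r = 0.86 and rho = 0.94 (adjusted p = 0.0227 and 0.0126, exact permutation test), and r = 0.96 without the 2 mice farthest from the median. For Adra1b with Adcy5, r was 0.88 and rho 0.84 (exact permutation test, adjusted p = 0.0227 and 0.0535), and r fell to 0.64 without the 2 farthest mice. Adra1a with Adcy6 gave r = 0.90 and rho = 0.89 (exact permutation test, adjusted p = 0.0292 and 0.0486), and r = 0.84 without the 2 farthest mice. Chrna2 passed with none of the other genes on this scale (r of -0.27 to 0.35 with the 6 genes), but in log2(TPM + 1) its r with them was 0.40 to 0.86, and 9 of 28 pairs passed. Among these was Chrna2 with Adcy5 (r = 0.86, exact permutation test, adjusted p = 0.0224, and rho = 0.76, adjusted p = 0.0879), with r = 0.75 without the 2 farthest mice. The place of Chrna2 relative to the other genes therefore depended on the scale.

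On the CPM scale, these 6 genes also followed the first principal component of all tested genes, which held 24.85% of the variance and did not separate the groups, with control mice TT-585 and TT-586 and HFD+mTAC mice TT-588, TT-589 and TT-592 on one side. With group means removed, Pearson's r with the component was 0.95 for Adcy5, 0.92 for Adra1b, 0.86 for Adcy6, 0.83 for Adra1a, 0.82 for Chrm2 and 0.74 for Adrb1 (exact permutation tests, adjusted p of 0.00292 to 0.0365 over 7 relations). Spearman's rho was 0.75 to 0.94 (adjusted p of 0.00365 to 0.0397, exact permutation tests), and r was 0.80 to 0.90 without the 2 mice farthest from the median of the component. Chrna2 had r = 0.20 and rho = 0.17 with the component (exact permutation tests, adjusted p = 0.618 and 0.665), and r = -0.60 without the 2 farthest mice. With the component as a covariate, 0 of the 6 genes were called in edgeR. The component is the axis along which all tested genes together varied most, and the share of them with such r was not computed. The relation is therefore not read as particular to these genes.

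**Figure D4:**
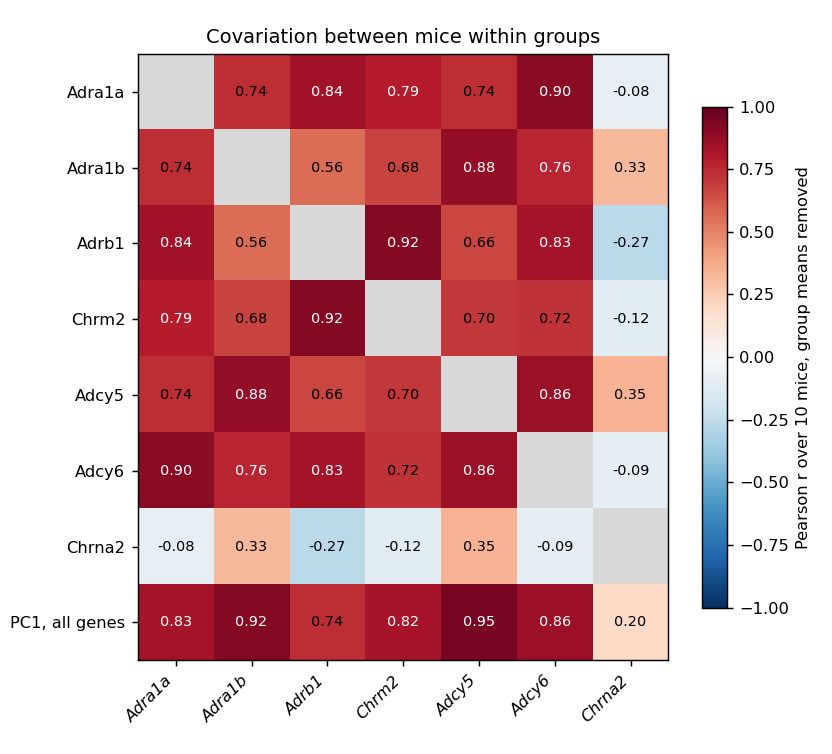
Pearson's r over 10 mice of log2(CPM + 0.5) with group means removed, for each pair of the 7 tested genes and, in the bottom row, for each gene with the first principal component (PC1) of all tested genes. The 6 genes other than Chrna2 have r of 0.56 to 0.92 with each other, whereas Chrna2 has r of -0.27 to 0.35 with them on this scale and 0.40 to 0.86 in log2(TPM + 1), which is not drawn.

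By the same measure of likeness, the tested genes of at least 1 CPM that were closest to Chrna2 among 12072 were H2-Ab1 (r = 0.97), Abhd12 (r = 0.93) and Cd74 (r = 0.93). These are the highest r of a search over 12072 genes in 10 mice, and no test of them was run. Chrna2 had only 25 to 120 estimated counts, and its covariation with other genes depended on the scale. H2-Ab1 and Cd74 encode a chain of MHC class II and the invariant chain that accompanies it. Between the groups their log2 fold changes were -0.21 and -0.22 (edgeR, adjusted p = 0.805 and 0.824), so that the likeness refers to differences between mice within a group.

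Chrna2 lies at chr14:66135039-66152948 on the plus strand, and Adra1a follows at chr14:66635251-66771168 on the same strand. The nearest tested gene before Chrna2, at a distance of 10.5 kb and on the opposite strand, was Ephx2, which encodes soluble epoxide hydrolase. Ephx2 had means of 361 and 484 CPM and a log2 fold change of 0.42 with an SE of 0.09 (edgeR, adjusted p = 0.171). On the other side, at 0.309 kb and also on the opposite strand, lay Ptk2b, a tyrosine kinase gene, with 10.6 and 11.2 CPM and a log2 fold change of 0.07 (edgeR, adjusted p = 0.943). For the other 7 genes, the nearest tested neighbours had log2 fold changes of -0.23 for Rab11fip1, next to Adrb3, to 0.29 for Eif4ebp1 on the other side of Adrb3, and 0 of them were called.

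The rest of the pathway was examined with lists of 149 other genes, of which 120 were tested. Of these, 65 had a positive and 55 a negative log2 fold change, with a median of 0.02 against 0.0014 for all tested genes. None was called by edgeR, and 18 (15.0%) had an unadjusted p under 0.05, against 8.26% of all tested genes. The groups did not overlap in CPM for 3 of the 120, against 261 (1.96%) of the 13300 tested genes. DESeq2 called 3, among them Gnb3 and Plcb1.

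Other adrenergic receptors were measured at low levels, and 4 of 5 were tested. All 4 had values above 0 on the log2 scale, as had 6694 of all 13300 tested genes. Adra1d had means of 1.61 and 1.93 CPM in control and HFD+mTAC mice, and Adra2b had 1.31 and 2.02 CPM (log2 fold change 0.61, edgeR adjusted p = 0.714). Of the other muscarinic receptors, 1 of 4 was tested, Chrm3 with 1.27 and 1.51 CPM. Of 15 other nicotinic subunits, 14 did not pass the filter, and Chrnb1, the beta-1 subunit of the muscle receptor, had 10.1 and 8.40 CPM (log2 fold change -0.26, edgeR adjusted p = 0.809). Chrna2 and Chrnb1 were the only 2 of 16 nicotinic subunits that passed the filter.

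Of 8 other adenylyl cyclases, 6 were tested and 0 were called. Adcy4 had 47.7 ± 3.65 and 53.1 ± 12.7 CPM (SD, n = 5 each) and Adcy7 had 14.2 ± 4.39 and 14.03 ± 2.50 CPM (SD, n = 5 each). Among 19 tested G protein subunits, Gnas, the stimulatory alpha subunit, had 416 and 434 CPM (log2 fold change 0.06, edgeR adjusted p = 0.902). Gnb3, a beta subunit, had 16.1 ± 1.29 CPM in control mice and 11.4 ± 1.86 CPM in HFD+mTAC mice (SD, n = 5 each). The groups did not overlap, as for 1.96% of all tested genes, and its log2 fold change was -0.50 (edgeR adjusted p = 0.261, DESeq2 adjusted p = 0.0365). Gng5 was measured at 193 and 174 CPM.

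Receptor kinases, arrestins and RGS proteins limit receptor signalling, and 0 of 16 tested genes of this list were called or had an unadjusted p under 0.05. Grk2, which phosphorylates activated beta receptors, had 95.9 and 94.4 CPM (log2 fold change -0.02, edgeR adjusted p = 0.962), Grk3 had 16.6 and 13.99 CPM, and Rgs5 had 1469 and 1504 CPM. For PKA, its anchors and cAMP sensors, 20 were tested, with a range of -0.24 to 0.39 on the log2 scale. Prkacb, a catalytic subunit of PKA, had a log2 fold change of 0.17 (edgeR, adjusted p = 0.691), and Pkig and Popdc2, the highest of that list in mean TPM, had -0.02 and -0.03.

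Phosphodiesterases degrade cAMP and had the widest range of the lists, from -1.41 for Pde2a to 1.38 for Pde11a. An unadjusted p under 0.05 was found for 5 of 16, against 8.26% of all tested genes. Pde11a had 0.748 ± 0.323 CPM in control mice and 2.00 ± 1.13 CPM in HFD+mTAC mice (SD, n = 5 each, edgeR adjusted p = 0.380). Pde2a, named after its value was seen, had 28.4 ± 23.0 and 10.6 ± 6.83 CPM (SD, n = 5 each, edgeR adjusted p = 0.479). Pde4a and Pde7a, the highest of the list in mean TPM, had log2 fold changes of 0.09 and -0.13.

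Of 12 PKA substrates of the cardiomyocyte, Rrad, which encodes a small G protein that restrains the L-type calcium channel, had 268 ± 37.7 CPM in control mice and 185 ± 45.3 CPM in HFD+mTAC mice (SD, n = 5 each, log2 fold change -0.53, edgeR adjusted p = 0.352). Tnni3 and Hspb6 had values of -0.22 and 0.11 on the log2 scale. Among 12 tested effectors of alpha-1 receptors, Plcb1, a phospholipase C, had 19.1 ± 2.27 and 25.8 ± 2.94 CPM (SD, n = 5 each). Its groups did not overlap either, as for 1.96% of all tested genes (log2 fold change 0.43, edgeR adjusted p = 0.261, DESeq2 adjusted p = 0.0380). Plcb4 and Prkca differed by 0.01 and by -0.00122 on the log2 scale. Kcnj3 and Kcnj5, which form the potassium channel opened through the M2 receptor, had values of 0.02 and 0.06.

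Of 11 genes for catecholamine synthesis, uptake and breakdown, 8 were tested. A log2 fold change above 0 was found for 7 of them, against 6694 of all 13300 tested genes. An unadjusted p under 0.05 was found for 3, against 8.26% of all tested genes. Maob, which encodes monoamine oxidase B, differed by 0.07. Of the acetylcholine list, 3 of 6 genes were tested, and Colq, the collagen tail that anchors acetylcholinesterase, had 20.1 ± 5.05 and 13.1 ± 2.56 CPM (SD, n = 5 each, log2 fold change -0.62, edgeR adjusted p = 0.358), whereas Bche differed by -0.01.

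**Figure D5:**
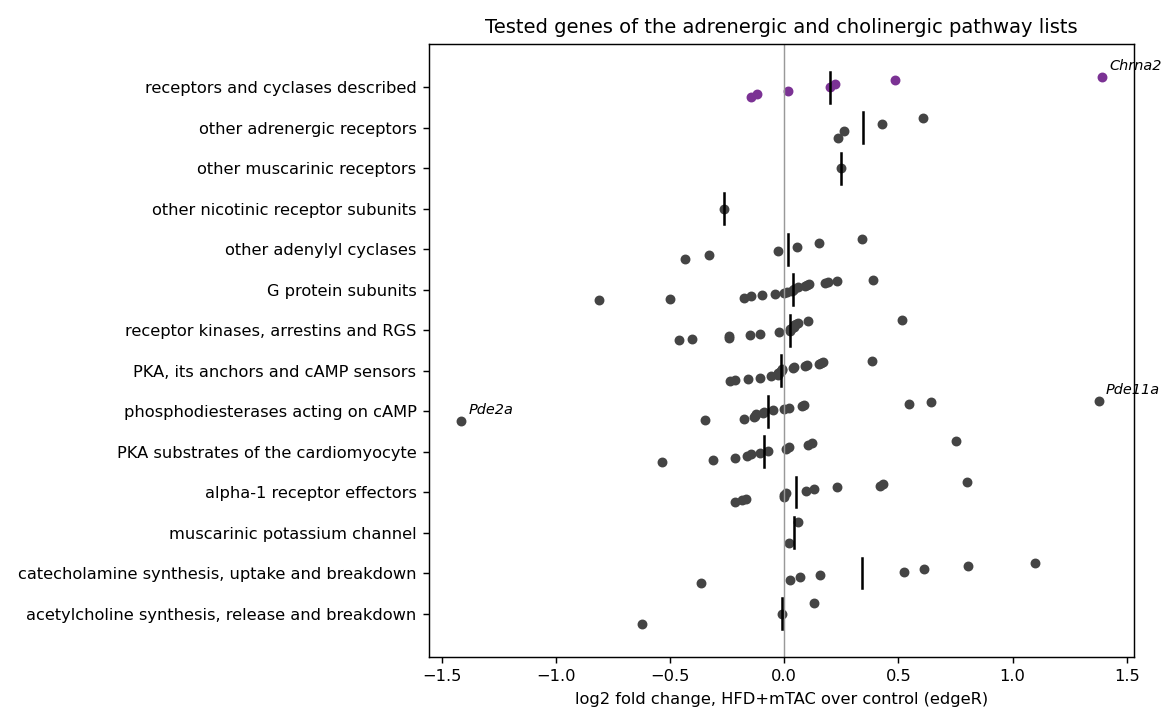
Log2 fold change of HFD+mTAC over control (horizontal axis, edgeR) of each tested gene, with the 7 tested receptors and cyclases in the top row, the other lists below and a vertical tick at the median of each row. Most genes lie near 0, with the largest values at 1.38 for Pde11a, -1.41 for Pde2a and 1.39 for Chrna2, which was chosen because it was higher in HFD+mTAC mice.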

How the data were processed

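Polyadenylated RNA of the LV of 10 mice was sequenced after stranded library preparation. According to the methods, the authors trimmed reads with fastp, quantified them with Salmon 1.6.0 on GENCODE transcripts of GRCm38 with bias corrections, and summed them to genes with tximport, whereas the submitters' processing notes name hg38. The authors deposited estimated counts per gene without normalization, of which 20.1% were not whole numbers, TPM values scaled within each mouse, and average effective lengths in bases. TPM columns summed to 94.8 to 96.6% of their nominal total. Genes are named by symbol, and 27812 of 29564 matched GENCODE M21 (GRCm38) directly and 869 by synonym. Libraries held 34.2 to 53.7 M estimated counts, of which 12.7 to 21.1 M lay on protein-coding genes.

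Counts were rounded, normalized by TMM and tested with edgeR 4.0.16 (quasi-likelihood, no covariate, Benjamini-Hochberg over 13300 genes) in R 4.3.3. Effective lengths were tested with limma 3.58.1. Correlations used exact permutation within groups in Python 3.11.15. The edgeR, DESeq2 and limma steps were tested on simulated data. Alternatives were other normalizations and filters, DESeq2 1.42.0, limma on log2(TPM + 1) and log2(TPM + 0.1), lengths as an offset and omission of each mouse. The covariate fit and the omission of 3 mice were chosen after the data were seen.

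The 8 genes, the pathway lists and the marker lists were chosen with earlier results of these data known. Named genes are the 8, the nearest tested gene on each side, the 3 most like Chrna2 and, for each list, the 2 of highest mean TPM and that of smallest unadjusted p, of which some are not reported here. Mice within a group are separate samples. Intervals are for the difference between the groups, estimated from the spread between these mice, and do not give the range of single mice.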

Additional observations from a re-analysis of the deposited data

How the results depend on the processing

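Across the alternatives, 0 of the 6 tested genes other than Chrna2 were called. The number of genes called among all 13300, 8 as reported, was 120 with DESeq2, 49 with the first principal component as a covariate, 2 without the 3 mice of lowest TPM sum, and 1 each with transcript lengths as an offset, with limma on log2(TPM + 0.1) and with limma on log2(TPM + 1). It was 1 to 9 when single mice were left out, with 1 without control mouse TT-584, TT-586 or TT-587 or HFD+mTAC mouse TT-588, TT-590 or TT-592, 2 without control mouse TT-585 and 3 without HFD+mTAC mouse TT-589. Of the pathway lists, 3 genes were called with DESeq2 and 1 with the covariate. The log2 value of Chrna2, 1.39, was 0.57 with limma on log2(TPM + 1), a scale that understates changes of low genes, and 1.63 without the 3 mice. The value of Adcy5, 0.02, turned to -0.122 with the length offset, -0.0780 and -0.0694 with limma at pseudocounts of 0.1 and 1, -0.0422 with the covariate, -0.0279 without the 3 mice, and ran from -0.0670 to 0.0851 when single mice were left out. That of Adcy6 was -0.0565 without the 3 mice, and that of Chrm2 ran from -0.238 to 0.0165 with single mice left out. The cause was not tested. With log2(TPM + 1) in place of log2(CPM + 0.5), 9 pairs passed in place of 4, among them Chrna2 with Adcy5. No paired analysis was possible because the mouse numbers are not shared between the groups. Depth limits Adrb3, and with 5 mice per group even the narrowest 95% interval of the 6 genes, that of Adcy5, ran from -0.25 to 0.28 on the log2 scale.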
